A study of Mus musculus with 24 samples.

Results

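Ovariectomized mice (OVX) were compared with sham-operated mice (Sham) in the dentoalveolar complex (DAC), the block of upper jaw bone with its teeth, during ligature-induced periodontitis. The comparison was chosen with earlier results of these data known. Its 8 libraries, 4 OVX and 4 Sham, were taken by their labels for tissue and treatment from the 24 libraries of the series. All were poly(A) RNA-seq libraries of female wild-type C57BL/6J mice aged 11 weeks. OVX mice had their ovaries removed on day 0 and were injected with corn oil from day 4. Sham mice had a sham operation on day 0 and the same corn oil injections. In both groups a 5-0 silk thread was tied round the second molar on each side of the upper jaw on day 7, and the tissue was collected on day 14, so no unligated jaw is part of the comparison. The tissue was cleaned of soft tissue and taken with its teeth. A further 4 DAC libraries, from ovariectomized mice given 1 µg of estradiol benzoate a day (OVXE2), entered the fit for their estimate of the spread. Replicates are named as biological, without a statement that each is a separate animal, so the tests measure the spread between these libraries, which may be technical.

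The alveolar bone around molars is remodelled by osteoclasts, which resorb it, and by osteoblasts and osteocytes, which form and maintain it. Osteoclasts mature when RANKL, made by osteocytes, osteoblasts, ligament cells and lymphocytes, binds its receptor RANK. Ovarian estrogen restrains bone resorption and also restrains the making of B lymphocytes in marrow, and in mice the loss of ovaries is known to raise the number of B-lineage precursors in marrow of the long bones. The jaw bone holds marrow, so a library of the DAC carries transcripts of bone, tooth, ligament, vessels, nerve and blood-forming cells together.

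Counts assigned to genes ranged from 24341708 to 29248358 in the OVX libraries and from 14771830 to 24923126 in the Sham libraries. The defining genes of the labelled tissue were present in every library: 12 osteoblast markers took between 12.5% and 17.97% of all counts in OVX and between 13.9% and 15.2% in Sham. Transcripts of neighbouring tissue were present too and differed between libraries. The genes of nasal glands took 14.1%, 1.80%, 0.288% and 0.576% of counts in OVX replicates 1 to 4, against 2.3%, 0.442%, 2.63% and 1.93% in Sham replicates 1 to 4. OVX replicate 1 therefore stood apart. Brain neuron genes took at most 0.0128% of counts in OVX, against 0.0424% in Sham replicate 2, the shallowest library, and at most 0.00931% in the other Sham libraries. The share of counts that lay on the strand opposite to the gene was low, between 3.38% and 3.54%, in OVX replicates 1 and 2 and 3.69% in Sham replicate 4. It lay between 7.63% and 8.26% in OVX replicates 3 and 4 and between 7.63% and 8.81% in Sham replicates 1 to 3. Results are therefore also given without OVX replicate 1 and, where it bears on a result, within libraries of like opposite-strand share.

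**Figure D1:**
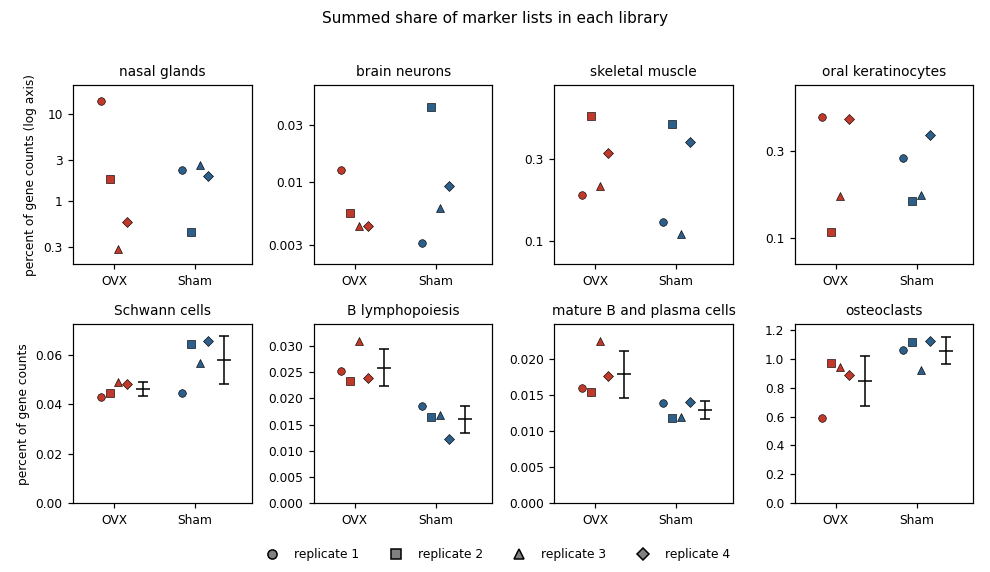
Share of all gene counts (percent) taken by 8 marker lists in each library, OVX left and Sham right; the 4 upper panels have a log axis, and bars in the other panels are the mean ± SD of 4 libraries. Nasal gland genes took 14.1% in OVX replicate 1 and 0.288% to 2.63% elsewhere, and the summed share of the B lymphopoiesis genes was higher in every OVX library than in any Sham library.

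Across the genome, no gene passed the test. Of 13617 genes tested with edgeR's quasi-likelihood test, 0 had a Benjamini-Hochberg adjusted p under 0.05, and the smallest adjusted p was 0.874. At an unadjusted p under 0.05 there were 437 genes, 3.21% of those tested, of which 222 (1.63%) were higher and 215 (1.58%) lower in OVX. Limma-voom also called 0 genes, with 417 at an unadjusted p under 0.05, while DESeq2 called 10, 0.0734% of those tested. The 4 OVX values lay wholly above the 4 Sham values in 226 genes (1.66%) and wholly below them in 171 genes (1.26%). Together these were 2.92% of the genes. These percentages are the background for every count of list members that follows. The median log2 fold change over all genes tested was −0.01, and 47.7% of genes were higher in OVX. A log2 fold change here is OVX over Sham, on TMM-scaled counts, and levels are in CPM, counts scaled to a common library size. Means are given ± SD over the 4 libraries of a group, and every 95% interval is that of a log2 fold change. The median standard error (SE) of a log2 fold change was 0.17, and for 10297 genes (75.6%) the whole 95% interval lay within 1 log2 unit of 0. Without OVX replicate 1, 0 of 13799 genes were called by edgeR and 426 had an unadjusted p under 0.05, of which 129 were higher and 297 lower.

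Genes of B lymphocytes stood higher in OVX than in Sham libraries. The gene lists here and below were set with earlier results of these data known, so their counts are descriptions. Of 16 genes fixed for B lymphopoiesis, the making of B cells in marrow, 10 were in the files, and all 10 of those were tested and higher in OVX. None was called by edgeR. Of the 10, 9 had an unadjusted p under 0.05 and 7 had OVX values wholly above the Sham values. Their median log2 fold change was 0.77. Their summed share of counts was 0.0251%, 0.0232%, 0.0310% and 0.0239% in OVX replicates 1 to 4, against 0.0185%, 0.0165%, 0.0168% and 0.0123% in Sham replicates 1 to 4. In bulk tissue, more cells of a type and more RNA per cell cannot be told apart. The difference was as large without OVX replicate 1, with a median of 0.82 and all 10 genes higher. It was also seen among libraries of like opposite-strand share: the median log2 ratio of group means was 0.72 in the higher-share libraries and 0.90 in the lower-share libraries, of which only 1 was a Sham library. All 10 genes were higher in OVX in both. For the 7 without overlap, a choice among the libraries could not turn the direction, here or without OVX replicate 1. A fit of the higher-share libraries alone left 4 of the 10 B lymphopoiesis genes at an unadjusted p under 0.05.

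The B-lineage genes ran from the first steps of the lineage to the antigen receptor. Rag1 and Rag2 encode the 2 subunits of the recombinase that assembles antigen receptor genes. Rag1 (ENSMUSG00000061311, chromosome 2, 101638282 to 101649501) had 30.1, 17.4, 15.98 and 15.1 CPM in OVX replicates 1 to 4, against 9.74, 9.30, 7.77 and 4.46 CPM in Sham replicates 1 to 4. It averaged 19.6 ± 7.04 CPM in OVX and 7.82 ± 2.39 CPM in Sham (SD, n = 4 each), with a log2 fold change of 1.33 ± 0.40 (SE) and an edgeR adjusted p of 0.874. The groups did not overlap, and OVX replicate 1 was the highest of the 8 libraries. Without that library the log2 fold change of Rag1 was 1.05. Rag2 averaged 3.26 ± 0.290 CPM in OVX and 1.74 ± 0.387 CPM in Sham and did not overlap either, with a log2 fold change of 0.90 ± 0.28 (SE). Pax5, the transcription factor that commits cells to the B lineage, had 32.1, 20.8, 25.9 and 22.6 CPM in OVX replicates 1 to 4, against 16.8, 12.1, 15 and 9.34 CPM in Sham replicates 1 to 4. Every OVX value of Pax5 exceeded every Sham value, with a log2 fold change of 0.93 ± 0.27 (SE). Ebf1, the factor that acts before and beside Pax5, averaged 42.5 ± 2.11 CPM in OVX and 33.8 ± 5.75 CPM in Sham, a smaller difference with overlapping groups and a log2 fold change of 0.33 ± 0.12 (SE). Bach2, a repressor that keeps B cells from becoming plasma cells, averaged 29.7 ± 6.54 CPM in OVX and 17.4 ± 4.46 CPM in Sham with no overlap.

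Cd79a and Cd79b encode the signalling chains of the B cell receptor. Cd79a had 33.5, 33.2, 59.2 and 34.9 CPM in OVX replicates 1 to 4, against 28.4, 19.9, 29.2 and 17.2 CPM in Sham replicates 1 to 4. Cd79b had 34.2, 38.9, 60.0 and 40.5 CPM in OVX replicates 1 to 4, against 31.8, 20.4, 30.4 and 20.1 CPM in Sham replicates 1 to 4. In both genes the lowest OVX library stood above the highest Sham library, and both had a log2 fold change of 0.76. Vpreb3, a chaperone of the precursor B cell receptor, averaged 20.9 ± 4.57 CPM in OVX and 14.0 ± 2.24 CPM in Sham, with a log2 fold change of 0.57 ± 0.17 (SE), and its groups overlapped. Lef1, a Wnt-responsive factor of precursor lymphocytes, was the only 1 of the 10 with an unadjusted p above 0.05, at 6.98 ± 0.814 CPM in OVX and 5.86 ± 0.492 CPM in Sham.

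**Figure D2:**
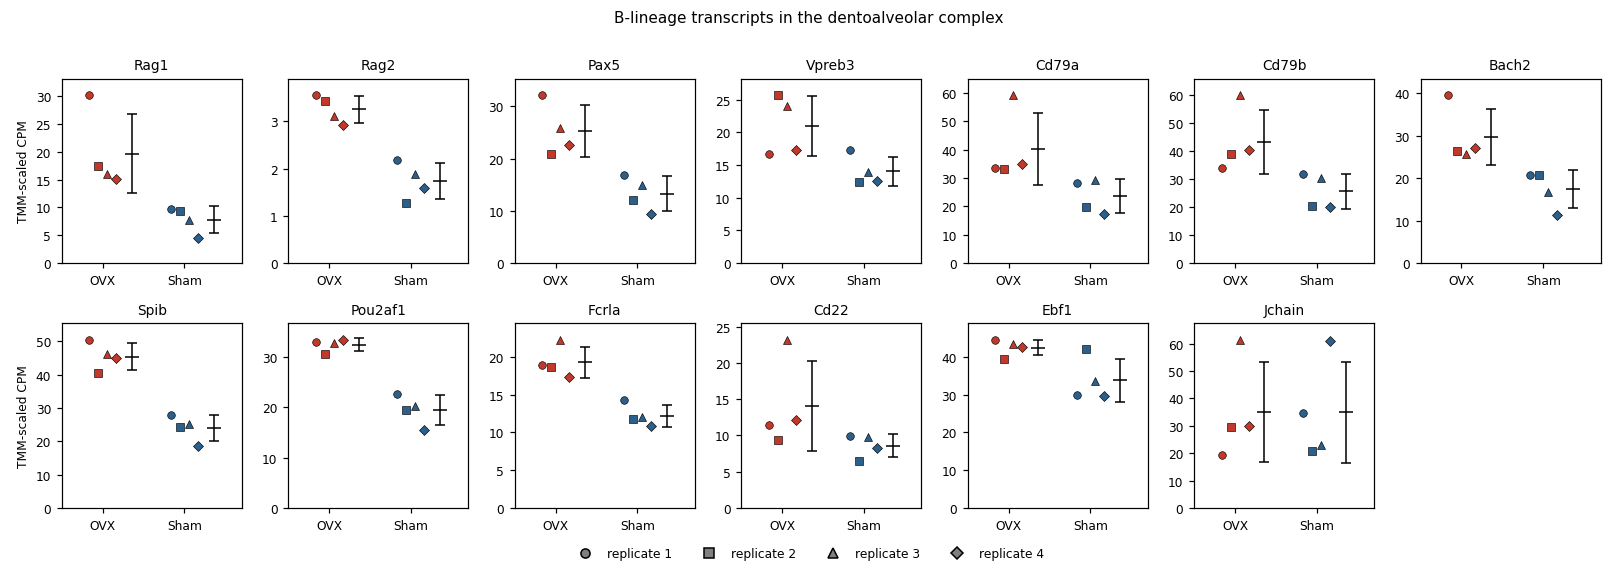
Level (CPM) of 13 B-lineage genes in each library, OVX left and Sham right in every panel, with markers for the replicates and bars for the mean ± SD of 4 libraries. The OVX values of Rag1, Rag2, Pax5, Cd79a, Cd79b, Bach2, Spib, Pou2af1 and Fcrla lie wholly above the Sham values, while those of Ebf1, Vpreb3, Cd22 and Jchain overlap them.

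Of 14 genes fixed for mature B and plasma cells, 8 were in the files and tested, and all 8 were higher in OVX, 5 with an unadjusted p under 0.05 and 3 without overlap. Their median log2 fold change was 0.72. Spib, an Ets-family factor of B cell receptor signalling, had 50.3, 40.5, 46.1 and 44.9 CPM in OVX replicates 1 to 4, against 27.9, 24.4, 25.0 and 18.5 CPM in Sham replicates 1 to 4. It averaged 45.4 ± 4.07 CPM in OVX and 23.99 ± 3.93 CPM in Sham, a log2 fold change of 0.92 ± 0.18 (SE) (95% interval of 0.52 to 1.32). Pou2af1, the coactivator that binds Oct factors at B cell promoters, had 32.9, 30.5, 32.8 and 33.3 CPM in OVX replicates 1 to 4, against 22.7, 19.4, 20.2 and 15.5 CPM in Sham replicates 1 to 4. It averaged 32.4 ± 1.28 CPM in OVX and 19.4 ± 2.97 CPM in Sham, a log2 fold change of 0.73 ± 0.15 (SE) (95% interval of 0.41 to 1.06). In both genes the groups stood clear of each other. Both had an edgeR adjusted p of 0.874 and a DESeq2 adjusted p of 0.00602. Fcrla, an Fc receptor-like protein found inside B cells, averaged 19.3 ± 2.07 CPM in OVX and 12.2 ± 1.46 CPM in Sham without overlap. Cd22, an inhibitory coreceptor that binds sialic acid, averaged 14.0 ± 6.19 CPM in OVX and 8.601 ± 1.58 CPM in Sham, with overlap.

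The list was not uniform. Jchain and Prdm1, which mark the antibody-secreting plasma cells, had log2 fold changes near 0. Jchain, which joins antibody units, averaged 35.0 ± 18.1 CPM in OVX and 34.9 ± 18.4 CPM in Sham, with a log2 fold change of 0.00 (95% interval of −1.04 to 1.04). Prdm1, the factor that drives plasma cell fate, averaged 29.1 ± 3.49 CPM in OVX and 28.9 ± 1.48 CPM in Sham, with a log2 fold change of 0.01 (95% interval of −0.26 to 0.29). Cr2, the complement receptor of mature B cells, was high in 1 library: it had 1.36, 0.450, 6.62 and 0.732 CPM in OVX replicates 1 to 4, against 0.687, 0.641, 0.291 and 0.751 CPM in Sham replicates 1 to 4. Fcer2a, the low-affinity IgE receptor of mature B cells, had 1.84, 1.23, 7.64 and 1.73 CPM in OVX replicates 1 to 4, against 1.58, 0.641, 1.65 and 1.36 CPM in Sham replicates 1 to 4. For both genes OVX replicate 3 was the highest library and OVX replicate 1 the next of the OVX libraries, and OVX replicate 2 lay within the range of the Sham values. The median of the 8 genes was 0.76 without OVX replicate 1. Without OVX replicate 3 it was 0.43, and that of the 10 lymphopoiesis genes 0.54.

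Promoter sequences of 3 of these genes are shown because Spib and Pou2af1 had the smallest unadjusted p of the B-lineage genes and Cd22 alone held a motif match. Each line gives the 250 bases before the RefSeq start of the gene in the mouse build GRCm38.p6, 5′ to 3′ on the gene's strand. Capitals mark a match to the palindrome bound by Ebf1, made of TCCC and GGGA with 2 bases between them.
Spib, chr7:44532072-44532321, minus strand: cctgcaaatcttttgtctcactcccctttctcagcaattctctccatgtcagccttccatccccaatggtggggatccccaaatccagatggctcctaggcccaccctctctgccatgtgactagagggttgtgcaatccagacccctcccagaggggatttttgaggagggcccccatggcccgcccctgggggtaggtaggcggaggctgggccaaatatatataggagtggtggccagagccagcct
Pou2af1, chr9:51213440-51213689, plus strand: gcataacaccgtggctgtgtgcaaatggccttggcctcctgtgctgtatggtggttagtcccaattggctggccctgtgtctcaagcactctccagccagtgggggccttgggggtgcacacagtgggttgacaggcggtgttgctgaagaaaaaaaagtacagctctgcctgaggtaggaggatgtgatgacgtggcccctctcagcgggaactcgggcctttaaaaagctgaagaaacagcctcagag
Cd22, chr7:30879029-30879278, minus strand: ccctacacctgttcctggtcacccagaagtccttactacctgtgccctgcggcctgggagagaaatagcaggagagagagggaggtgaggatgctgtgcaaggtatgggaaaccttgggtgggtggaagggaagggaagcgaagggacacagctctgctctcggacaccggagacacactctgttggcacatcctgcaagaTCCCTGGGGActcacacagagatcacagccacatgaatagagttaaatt
The match in Cd22 began at position −49 from the start. Of the 18 tested genes of both B cell lists, 16 had a RefSeq promoter window of 300 bases, 250 before and 50 after the start, and 1 of the 16 genes (6.25%) held the motif, in 1 of 22 windows (4.55%). Among all RefSeq genes of the table, 287 of 27025 (1.06%) held it, in 297 of 32851 windows (0.904%). The palindromic estrogen response element, GGTCA and TGACC with 3 bases between them, was in 23 of all windows (0.07%) and in 0 of those of the B-lineage genes. Both motifs read the same on both strands, and a match in letters is a description, not a binding site.

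The marrow stroma feeds B cell precursors, and its own genes were split. Of 8 stromal genes tested, 5 were higher and 3 lower, with a median of 0.07 and none at an unadjusted p under 0.05. Il7, the growth factor of precursor B cells in mice, averaged 1.67 ± 0.253 CPM in OVX and 1.60 ± 0.282 CPM in Sham, with a 95% interval of −0.37 to 0.49. Cxcl12, the chemokine that holds precursors in marrow, averaged 487 ± 64.5 CPM in OVX and 495 ± 55.6 CPM in Sham, with a 95% interval of −0.31 to 0.26.

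Lists of several other blood cells also had more members higher than lower in OVX, with smaller medians and more overlap. Of 19 genes fixed for T and NK cells, 18 were tested and all 18 were higher in OVX, with a median log2 fold change of 0.41, but only 1, the adhesion receptor Cd2, had an unadjusted p under 0.05. Cd2 averaged 5.54 ± 1.41 CPM in OVX and 3.59 ± 0.969 CPM in Sham. Cd3e, a chain of the T cell receptor complex, averaged 3.32 ± 1.32 CPM in OVX and 2.13 ± 1.14 CPM in Sham, with a 95% interval of −0.51 to 1.77. Without OVX replicate 1, 16 of the 18 T and NK genes were higher. All 12 tested erythroid genes were higher, with a median of 0.44 and none at an unadjusted p under 0.05. Klf1, the erythroid master regulator, averaged 11.7 ± 3.75 CPM in OVX and 8.605 ± 3.04 CPM in Sham. The erythroid median log2 ratio of group means was 0.12 in the higher-share libraries, with 8 of 12 higher, and 0.96 in the lower-share libraries. All 12 tested genes of immature neutrophils were higher, with a median of 0.18 and none at an unadjusted p under 0.05. Their median log2 ratio of group means was 0.03 in the higher-share libraries, with 8 of 12 higher, and 0.77 in the lower-share libraries. Mpo, the granule enzyme of promyelocytes, averaged 379.8 ± 57.4 CPM in OVX and 323 ± 118 CPM in Sham, with a 95% interval of −0.32 to 0.79.

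Of the 9 mature neutrophil genes tested, 2 were higher and 7 lower, with a median of −0.08. S100a8, a subunit of calprotectin, averaged 1547 ± 301 CPM in OVX and 1632 ± 188 CPM in Sham, with a 95% interval of −0.65 to 0.49. Genes of monocytes and macrophages were split, 6 higher and 4 lower of 10. Of 9 dendritic cell genes 6 were higher, of 10 genes of mast cells, basophils and eosinophils 7, and of 7 megakaryocyte genes 5, none of them at an unadjusted p under 0.05. Of 10 tested genes of stem and progenitor cells, Ikzf1 and Myb were higher without overlap. Ikzf1, the lymphoid regulator Ikaros, averaged 73.4 ± 10.6 CPM in OVX and 49.6 ± 9.56 CPM in Sham. Myb, a factor of blood progenitors and early B cells, had 42.5, 39.7, 43.7 and 34.8 CPM in OVX replicates 1 to 4, against 34.5, 29.7, 22.9 and 18.3 CPM in Sham replicates 1 to 4. Both have a role in the B lineage too. Kit, the stem cell factor receptor, averaged 37.8 ± 5.52 CPM in OVX and 37.5 ± 4.13 CPM in Sham, with a log2 fold change of 0.01. The 10 adipocyte genes tested were all higher with a median of 0.31, Lpl (lipoprotein lipase) alone having an unadjusted p under 0.05. Without OVX replicate 4 the adipocyte median was −0.03.

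Proliferation genes, which serve every dividing cell type, were slightly higher. Of 13 cell cycle genes tested, 11 were higher in OVX, with a median of 0.12. Their median log2 ratio of group means was 0.04 in the higher-share libraries, with 8 of 13 higher, and 0.43 in the lower-share libraries. Without Sham replicate 4 the median log2 fold change was 0.04, with 10 of 13 higher. Mcm5, part of the replicative helicase, was the 1 member with an unadjusted p under 0.05 and averaged 65.5 ± 5.94 CPM in OVX and 57.2 ± 4.58 CPM in Sham. Mki67, the antigen Ki-67 of cycling cells, averaged 175 ± 35.5 CPM in OVX and 123 ± 28.1 CPM in Sham.

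**Figure D3:**
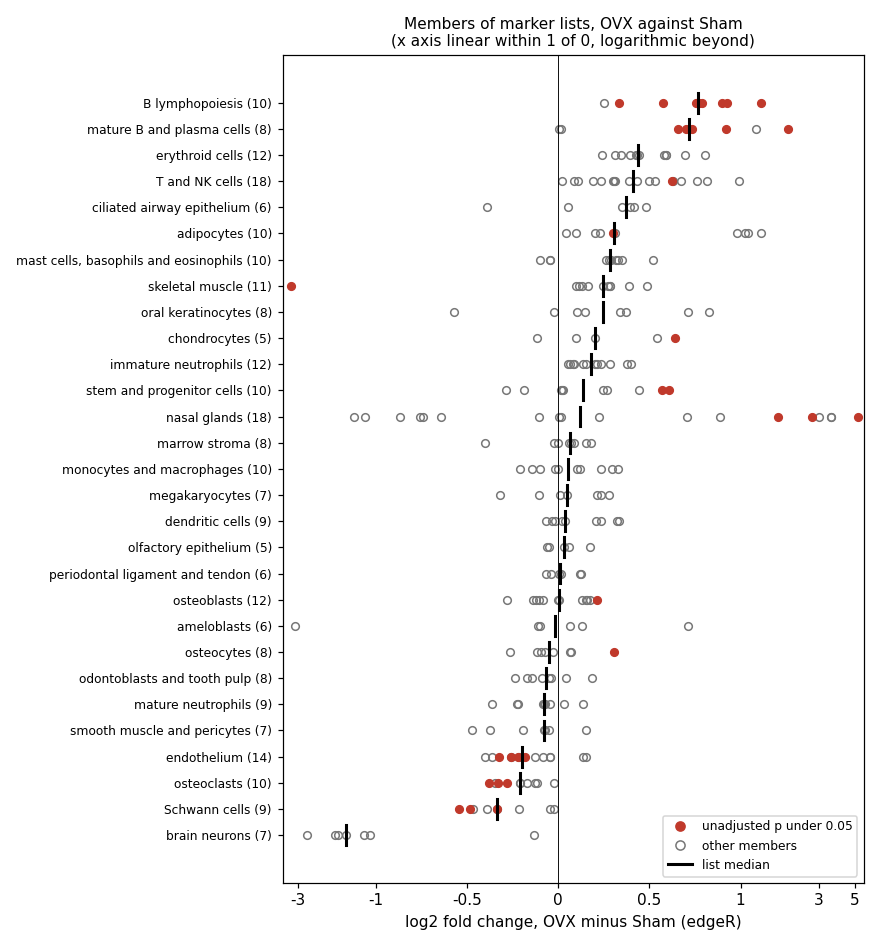
Log2 fold change (OVX over Sham, symmetric log axis) of the tested members of each marker list with at least 5 of them, with red points for an unadjusted p under 0.05 and a bar at each list's median. Medians of the B lymphopoiesis and mature B lists, at 0.77 and 0.72, lie above those of the other blood cell lists, and the osteoclast, endothelium and Schwann cell lists lie below 0.

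Osteoclast genes stood lower in OVX, by a small margin. Of 15 genes fixed for osteoclasts, 10 were tested and all 10 were lower in OVX, with a median log2 fold change of −0.21. None was called by edgeR, 3 had an unadjusted p under 0.05, and 1 was without overlap. Oscar, a costimulatory receptor of osteoclast precursors, had 27.82, 39.88, 38.38 and 34.38 CPM in OVX replicates 1 to 4, against 46.3, 44.69, 39.9 and 52.03 CPM in Sham replicates 1 to 4. Each OVX value of Oscar was below each Sham value, with a log2 fold change of −0.38 ± 0.12 (SE) and an edgeR adjusted p of 0.874. Ctsk, the protease cathepsin K that degrades bone collagen, had 2069.7, 3182, 3295 and 2834 CPM in OVX replicates 1 to 4, against 3515, 3694, 3293 and 3798 CPM in Sham replicates 1 to 4. OVX replicate 1 was the lowest library for Ctsk, and the groups overlapped. Mmp9, a gelatinase of osteoclasts and neutrophils, averaged 2282 ± 352 CPM in OVX and 2772 ± 218 CPM in Sham, with a log2 fold change of −0.28 ± 0.12 (SE). Acp5, the tartrate-resistant acid phosphatase used to stain osteoclasts, had 1714, 3328, 3170.1 and 2704 CPM in OVX replicates 1 to 4, against 3481, 3152, 3072 and 4163 CPM in Sham replicates 1 to 4, with a 95% interval of −0.79 to 0.10.

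OVX replicate 1, the library rich in nasal gland transcripts, had the lowest summed osteoclast share, 0.589% of counts, against 0.885% to 0.9696% in the other OVX libraries and 0.922% to 1.13% in Sham. Without it the median of the 10 genes was −0.13, all 10 were still lower, and only 1 had an unadjusted p under 0.05. The log2 fold change of Ctsk was then −0.20 and that of Oscar −0.28. With the nasal gland share as a covariate the median for osteoclasts was −0.23, with all 10 genes lower and 4 at an unadjusted p under 0.05. With the nasal gland genes removed before scaling it was −0.21. In the higher-share libraries alone it was −0.16, with none at an unadjusted p under 0.05.

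Genes of the RANKL axis and of cytokines that act on osteoclasts were mostly lower too. The list is not limited to signals that drive osteoclasts and also holds Sema3a, Efnb2, Ephb4 and Tgfb1. Of 17 genes fixed for the RANKL axis and osteoclast-active cytokines, 14 were tested, 12 lower and 2 higher, with a median of −0.16 and 2 lower at an unadjusted p under 0.05. Their summed share was 0.0904%, 0.113%, 0.108% and 0.112% in OVX replicates 1 to 4. In Sham replicates 1 to 4 it was 0.116%, 0.117%, 0.123% and 0.120%, so the groups stood apart by a small margin. Among the 43 lists, both B cell lists were also without overlap in summed share, and the others overlapped. Abundant members weigh most in such a sum: in Sham replicate 4, Tgfb1 had 399.7 CPM and Tnfsf11 40.19 CPM. The summed share therefore says little about RANKL itself. Tnfsf11, the gene of RANKL, had 25.75, 36.12, 29.84 and 34.15 CPM in OVX replicates 1 to 4, against 36.08, 38.15, 50.1 and 40.19 CPM in Sham replicates 1 to 4. It averaged 31.5 ± 4.62 CPM in OVX and 41.1 ± 6.21 CPM in Sham, with a log2 fold change of −0.39 ± 0.15 (SE) (95% interval of −0.72 to −0.05) and an overlap of the groups. Without OVX replicate 1, the lowest of the 8 libraries for Tnfsf11 and for the summed share, the log2 fold change of Tnfsf11 was −0.30 and the median of the 14 genes −0.11. Tnfrsf11a, its receptor RANK, averaged 37.7 ± 2.57 CPM in OVX and 42.4 ± 3.51 CPM in Sham. Csf1, the growth factor of osteoclast precursors, was at 123 ± 14.0 CPM in OVX and 126 ± 11.8 CPM in Sham, with a log2 fold change of −0.04.

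Lif, a cytokine of the interleukin-6 family made by bone and stromal cells, had 14.7, 15.5, 14.1 and 14.4 CPM in OVX replicates 1 to 4, against 20, 19.9, 24.6 and 19.2 CPM in Sham replicates 1 to 4. The OVX values of Lif were close together and wholly below the Sham values, with a log2 fold change of −0.51 ± 0.10 (SE) (95% interval of −0.73 to −0.29). Lif was not called by edgeR, at an adjusted p of 0.874, and was called by DESeq2, at an adjusted p of 0.0148. Il6, its family member, had 5.43, 5.16, 5.60 and 8.55 CPM in OVX replicates 1 to 4, against 5.82, 15.8, 11.4 and 8.12 CPM in Sham replicates 1 to 4, with overlap and a log2 fold change of −0.73 ± 0.34 (SE). Il1b, the inflammasome cytokine, averaged 195 ± 48.6 CPM in OVX and 235 ± 53.3 CPM in Sham, with a 95% interval of −0.89 to 0.35. Il17a, the cytokine of Th17 and gamma-delta T cells, averaged 2.31 ± 1.01 CPM in OVX and 2.28 ± 0.931 CPM in Sham, with a 95% interval of −1.22 to 1.25.

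**Figure D4:**
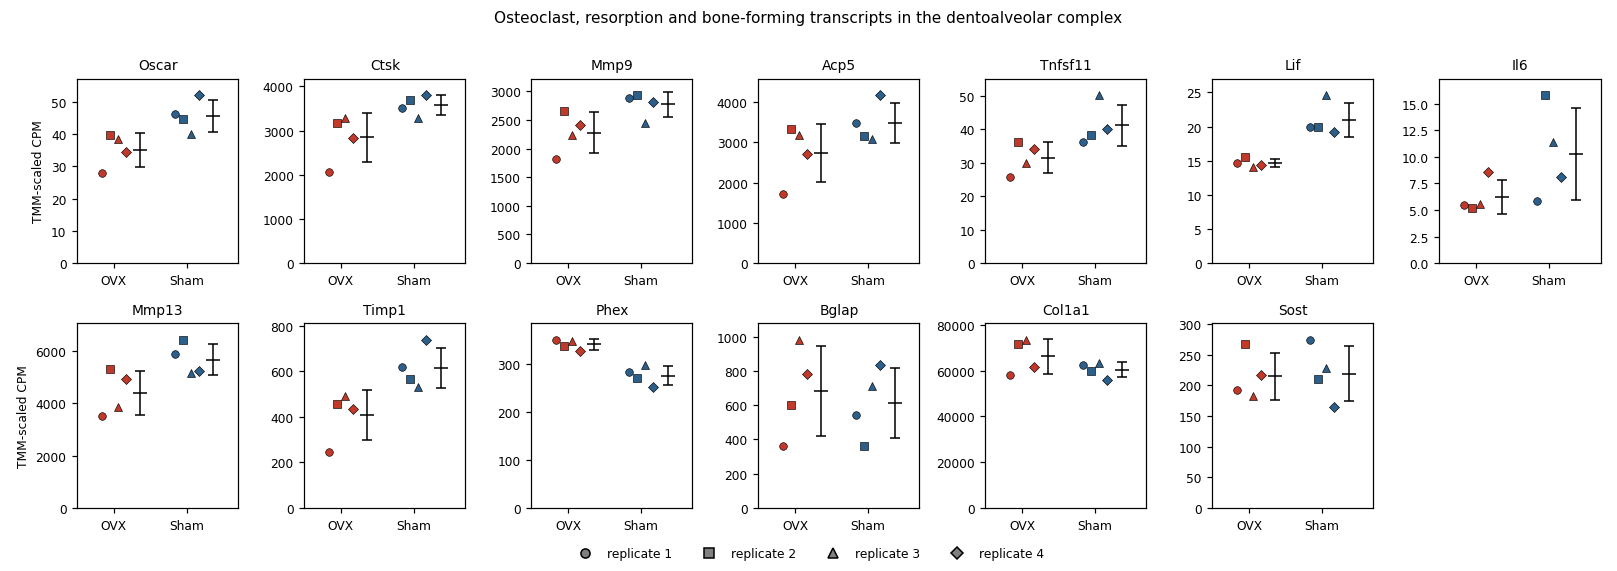
Level (CPM) of 13 genes of bone resorption, inflammation and bone formation in each library, OVX left and Sham right in every panel, with bars for the mean ± SD of 4 libraries. Oscar, Lif and Timp1 lie wholly lower in OVX, Phex wholly higher, and the remaining panels overlap.

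Of 22 cytokines and chemokines fixed for periodontitis, 20 were tested, 15 of them lower and 5 higher in OVX, with a median of −0.25. Lif and Il10 were lower and Nos2 higher at an unadjusted p under 0.05. Il10, an anti-inflammatory cytokine, averaged 1.28 ± 0.571 CPM in OVX and 2.29 ± 0.836 CPM in Sham. Nos2, the inducible nitric oxide synthase, averaged 7.12 ± 3.60 CPM in OVX and 4.46 ± 0.562 CPM in Sham, and its log2 fold change was 0.68, or 0.34 without OVX replicate 1. Cxcl1, a neutrophil attractant, averaged 34.1 ± 6.50 CPM in OVX and 48.0 ± 18.5 CPM in Sham. Csf3, the growth factor of neutrophils, averaged 23 ± 5.80 CPM in OVX and 38.2 ± 18.4 CPM in Sham. Among the 8 interferon response genes tested, 5 were higher, with a median of 0.24, and none had an unadjusted p under 0.05. Ifng, interferon gamma itself, averaged 0.813 ± 0.369 CPM in OVX and 0.269 ± 0.272 CPM in Sham, with 0 CPM in Sham replicate 2.

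Among 11 tested matrix proteases and inhibitors, 7 were lower and 4 higher, with a median of −0.26. Mmp13, the collagenase of osteoblasts and hypertrophic cartilage, averaged 4403 ± 849 CPM in OVX and 5677 ± 592 CPM in Sham, with a log2 fold change of −0.37 ± 0.15 (SE) and an unadjusted p under 0.05. Timp1, an inhibitor of these proteases, had 248, 454, 490.0 and 436 CPM in OVX replicates 1 to 4, against 619, 567, 532 and 736 CPM in Sham replicates 1 to 4. No OVX library reached the lowest Sham library for Timp1, but the OVX values were spread widely, and its unadjusted p was above 0.05. Mmp2 and Mmp14, proteases of fibroblasts and osteoblasts, had log2 fold changes of −0.03 and 0.02.

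Bone-forming cells showed no shared direction. Of 12 osteoblast genes tested, 6 were higher and 6 lower, with a median of 0.00. Col1a1, the main collagen chain of bone, averaged 66209 ± 7481 CPM in OVX and 60389.6 ± 3269 CPM in Sham, with a 95% interval of −0.12 to 0.39. Bglap, the gene of osteocalcin, averaged 681 ± 263 CPM in OVX and 613 ± 206 CPM in Sham, with a 95% interval of −0.64 to 0.95. Ibsp, bone sialoprotein, averaged 3927 ± 714 CPM in OVX and 4775 ± 442 CPM in Sham. Without OVX replicate 1, 11 of the 12 osteoblast genes were higher, with a median of 0.11.

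Of 8 osteocyte genes tested, 3 were higher and 5 lower. Phex, a membrane peptidase of osteocytes and osteoblasts that limits phosphate loss, had 349, 337, 348 and 326 CPM in OVX replicates 1 to 4, against 282, 269, 298 and 250.6 CPM in Sham replicates 1 to 4. The lowest OVX value of Phex was above the highest Sham value, with a log2 fold change of 0.31 ± 0.13 (SE). Sost, the gene of the Wnt inhibitor sclerostin, averaged 214 ± 38.1 CPM in OVX and 219 ± 44.9 CPM in Sham, with a 95% interval of −0.46 to 0.40. Dmp1, a matrix protein of osteocytes, averaged 627 ± 44.9 CPM in OVX and 601 ± 89.7 CPM in Sham. Fgf23, the phosphate hormone of osteocytes, averaged 1.7 ± 0.398 CPM in OVX and 1.85 ± 0.144 CPM in Sham.

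In the teeth and ligament, the lists stayed near 0. The 8 odontoblast and pulp genes had a median of −0.07 with 2 higher, and Dspp, the dentin phosphoprotein gene, averaged 569.6 ± 174 CPM in OVX and 502 ± 57.1 CPM in Sham. The 6 periodontal ligament and tendon genes had a median of 0.01, with Postn (periostin) at 11429 ± 2071 CPM in OVX and 11406 ± 719 CPM in Sham. Tnmd, the tendon marker tenomodulin, averaged 24.8 ± 3.94 CPM in OVX and 22.9 ± 5.13 CPM in Sham. No member of these 2 lists had an unadjusted p under 0.05. Ameloblast genes, of the enamel-forming cells, were split 3 to 3, and Amelx (amelogenin) had 1.04, 0.409, 0 and 0 CPM in OVX, against 5.98, 6.54, 0 and 0 CPM in Sham. It was at 0 in 4 of the 8 libraries.

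Of 5 cartilage genes tested, 4 were higher, and 1, Acan, had no overlap. Acan, the gene of the cartilage proteoglycan aggrecan (ENSMUSG00000030607, chromosome 7, 79053483 to 79115099), had 34.3, 39.5, 33.9 and 28.6 CPM in OVX replicates 1 to 4, against 20.1, 20.9, 25.2 and 21.3 CPM in Sham replicates 1 to 4. It averaged 34.1 ± 4.46 CPM in OVX and 21.9 ± 2.27 CPM in Sham, with a log2 fold change of 0.64 ± 0.12 (SE) (95% interval of 0.37 to 0.91), an edgeR adjusted p of 0.874 and a DESeq2 adjusted p of 0.0115. The value without OVX replicate 1 was 0.64. Col9a1, a collagen chain of cartilage, averaged 1.94 ± 0.526 CPM in OVX and 1.34 ± 0.329 CPM in Sham, with overlap. Col10a1, the collagen of hypertrophic cartilage, averaged 3.51 ± 2.64 CPM in OVX and 3.06 ± 0.966 CPM in Sham, with a 95% interval of −0.90 to 1.30.

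Most endothelial and Schwann cell genes were lower in OVX. Of 14 endothelial genes tested, 12 were lower and 2 higher, with a median of −0.20 and 4 lower at an unadjusted p under 0.05. Robo4, an endothelial guidance receptor, was without overlap, at 36.7, 35.4, 43.7 and 42.7 CPM in OVX, against 52.6, 43.9, 44.5 and 48.6 CPM in Sham. Cdh5, the junction protein VE-cadherin, averaged 174 ± 11.1 CPM in OVX and 197 ± 8.67 CPM in Sham, and Tie1, an orphan receptor of endothelium, 109 ± 10.9 CPM in OVX and 126 ± 8.87 CPM in Sham. The endothelial median was −0.14 without OVX replicate 1, and 1 gene then had an unadjusted p under 0.05. The endothelial median log2 ratio of group means was −0.09 in the higher-share libraries, with 11 of 14 lower, and −0.38 in the lower-share libraries. Of 7 genes of smooth muscle and pericytes, 6 were lower, with a median of −0.08. Flt1 and Kdr, the receptors of VEGF, had log2 fold changes of −0.05 and −0.08.

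All 9 Schwann cell genes tested were lower, with a median of −0.34, 3 of them at an unadjusted p under 0.05. Ncmap, a protein of noncompact myelin, had 11.0, 18.9, 15.98 and 14.2 CPM in OVX replicates 1 to 4, against 20.4, 17.8, 22.3 and 23.4 CPM in Sham replicates 1 to 4. OVX replicate 2 lay within the Sham values of Ncmap and the other 3 OVX libraries below them, with a log2 fold change of −0.48 ± 0.16 (SE). Prx, periaxin of the myelin sheath, averaged 27.0 ± 1.65 CPM in OVX and 34.2 ± 3.89 CPM in Sham without overlap. The summed share of the 9 genes lay between 0.0430% and 0.0490% of counts in OVX, against 0.0642% in Sham replicate 2, the library with the most brain neuron transcripts, 0.0657% in Sham replicate 4, and 0.0444% and 0.0565% in Sham replicates 1 and 3. Leaving out OVX replicate 1 gave a median of −0.32. Without Sham replicate 2 it was −0.20, and the part that neighbouring nerve tissue has in it was not tested.

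Estrogen response genes gave a mixed picture. Of 22 genes fixed for steroid receptors and estrogen targets, 14 were tested, 11 higher and 3 lower, with a median of 0.09. Those with an unadjusted p under 0.05 were Esr1, Igf1 and Myb, all higher in OVX without overlap. Esr1, the gene of estrogen receptor alpha, had 23.1, 22.2, 23.99 and 23.3 CPM in OVX replicates 1 to 4, against 18.3, 16.5, 19.3 and 19.2 CPM in Sham replicates 1 to 4. It averaged 23.2 ± 0.726 CPM in OVX and 18.3 ± 1.28 CPM in Sham, with a log2 fold change of 0.34 ± 0.12 (SE) and an edgeR adjusted p of 0.874. Igf1, the insulin-like growth factor, averaged 192 ± 10 CPM in OVX and 172 ± 8.71 CPM in Sham, with a log2 fold change of 0.16 ± 0.06 (SE). Pgr, the progesterone receptor and a classic target that estrogen raises in the uterus, averaged 0.806 ± 0.388 CPM in OVX and 0.749 ± 0.293 CPM in Sham, low in both groups, with a 95% interval of −0.88 to 1.1.

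The remaining pathway lists had medians nearer 0 than the B-lineage lists. Of 10 Wnt genes, 5 were higher and 5 lower, and of 10 genes of the TGF-beta and BMP pathway, 9 were lower with a median of −0.14, none of them at an unadjusted p under 0.05. Without OVX replicate 1 the TGF-beta and BMP median was −0.04, with 3 of the 10 genes higher. All 7 genes of hypoxia and glycolysis were lower, with a median of −0.16, and Car9, a carbonic anhydrase induced by low oxygen, was without overlap at 1.65 ± 0.290 CPM in OVX and 2.27 ± 0.263 CPM in Sham. Of 11 antioxidant genes, 4 were higher. Sod3, the extracellular superoxide dismutase, averaged 99.7 ± 22.5 CPM in OVX and 143 ± 17.4 CPM in Sham and had an unadjusted p under 0.05.

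The genes with the smallest unadjusted p among those without overlap were set out in each direction. A2m, the protease inhibitor alpha-2-macroglobulin (ENSMUSG00000030111, chromosome 6, 121635376 to 121679227), had the smallest p of all. A2m had 4.75, 4.14, 4.29 and 7.51 CPM in OVX replicates 1 to 4, against 9.01, 11.2, 12.4 and 12.3 CPM in Sham replicates 1 to 4. It averaged 5.17 ± 1.58 CPM in OVX and 11.2 ± 1.57 CPM in Sham, with a log2 fold change of −1.11 ± 0.20 (SE) (95% interval of −1.56 to −0.67). All OVX libraries were below all Sham libraries, and the edgeR adjusted p was 0.874 against a DESeq2 adjusted p of 0.0036. In the OVXE2 libraries, from mice that were also ovariectomized, A2m averaged 63.2 ± 11.3 CPM (SD, n = 4), above both groups.

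Alx4, a homeobox factor of the skull and limb mesenchyme, had 18.8, 16.99, 19.2 and 22.1 CPM in OVX replicates 1 to 4, against 10.1, 12.5, 13.1 and 12.9 CPM in Sham replicates 1 to 4. It was higher in every OVX library, with a log2 fold change of 0.67 ± 0.14 (SE). Npnt, the matrix protein nephronectin that binds an integrin, averaged 114 ± 7.81 CPM in OVX and 94.6 ± 0.642 CPM in Sham, with a log2 fold change of 0.27 ± 0.06 (SE). In the OVXE2 libraries Npnt averaged 124.5 ± 6.56 CPM (SD, n = 4), a mean above those of OVX and Sham. Alx4 and Npnt were called by DESeq2, at adjusted p values of 0.0188 and 0.0452, and neither by edgeR, at 0.874. Hhip, a decoy receptor that blocks hedgehog ligands, averaged 4.05 ± 1.07 CPM in OVX and 2.02 ± 0.633 CPM in Sham, and its log2 fold change was 1.01, or 0.81 without OVX replicate 1. Cd69, an early activation marker of lymphocytes, averaged 3.98 ± 0.8293 CPM in OVX and 2.29 ± 0.316 CPM in Sham. Map4k1, a kinase of blood cells, averaged 15.8 ± 0.499 CPM in OVX and 11.5 ± 1.89 CPM in Sham. Trim12c, a tripartite-motif protein, averaged 31.9 ± 2.39 CPM in OVX and 25.5 ± 1.47 CPM in Sham.

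Medag was among the lower genes and is named for its estrogen-dependent expression in mesenteric fat. Medag had 9.30, 12.04, 11.1 and 14.2 CPM in OVX replicates 1 to 4, against 26.2, 17.95, 16.7 and 16.1 CPM in Sham replicates 1 to 4, with a log2 fold change of −0.72 ± 0.19 (SE). It averaged 11.7 ± 2.04 CPM in OVX, 19.2 ± 4.70 CPM in Sham and 12.3 ± 2.08 CPM in the OVXE2 libraries (SD, n = 4 each). Mcam, the adhesion molecule CD146 of vessel walls and stroma, had 137, 139, 144 and 145 CPM in OVX replicates 1 to 4, against 184, 159.7, 174 and 199 CPM in Sham replicates 1 to 4, with a log2 fold change of −0.34 ± 0.09 (SE). Apold1, an endothelial early response gene, averaged 15.3 ± 1.33 CPM in OVX and 20.1 ± 2.02 CPM in Sham. Porcn, the enzyme that attaches a lipid to Wnt proteins, averaged 34.0 ± 4.35 CPM in OVX and 45.3 ± 3.40 CPM in Sham, and Csgalnact1, an enzyme of chondroitin sulfate synthesis, averaged 27.4 ± 2.28 CPM in OVX and 35.1 ± 1.62 CPM in Sham. The others of the 12 lower genes were Phactr3, Gpn1, Fam219a, Prag1 and Stac2, with log2 fold changes of −0.67, −0.24, −0.20, −0.34 and −0.42. The 24 genes so named were chosen for not overlapping, so leaving out OVX replicate 1 could not turn their direction.

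**Figure D5:**
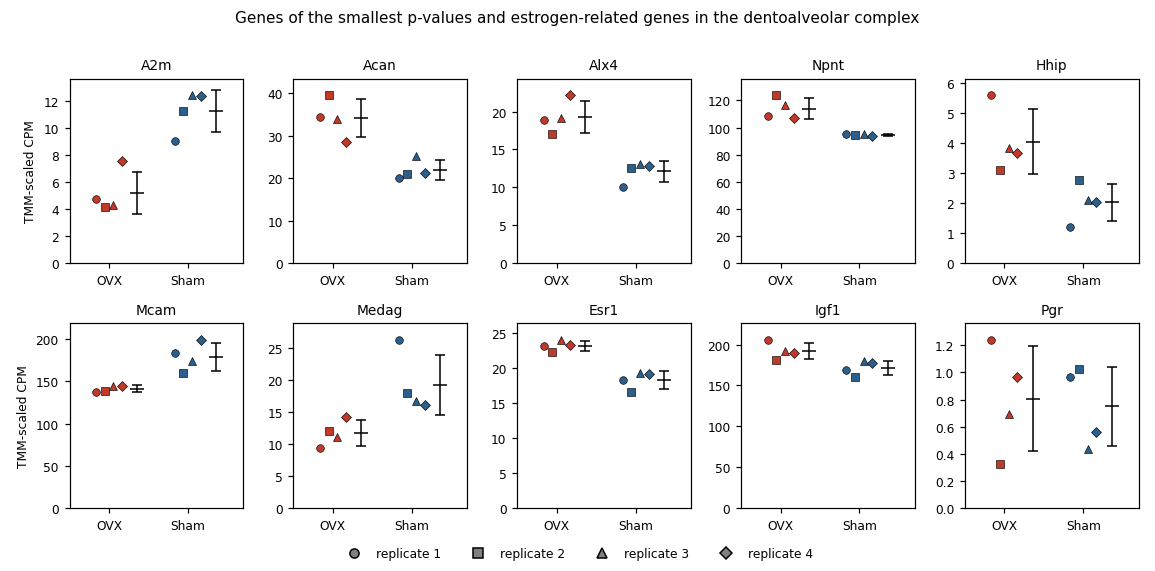
Level (CPM) of 10 genes outside the B-lineage and resorption lists in each library, OVX left and Sham right in every panel, with bars for the mean ± SD of 4 libraries. A2m, Mcam and Medag lie wholly lower and Acan, Alx4, Npnt, Hhip, Esr1 and Igf1 wholly higher in OVX, while Pgr overlaps.

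Genes of secretory glands were also among the higher ones, in libraries whose nasal gland shares differed as given above. Gp2, a membrane glycoprotein of secretory granules, had 13.1, 12.6, 63.6 and 6.68 CPM in OVX replicates 1 to 4, against 5.09, 2.44, 2.52 and 3.94 CPM in Sham replicates 1 to 4. Bpifb2, a secreted protein of glands, had 4.91, 13.1, 86.4 and 9.61 CPM in OVX replicates 1 to 4, against 3.56, 3.01, 3.54 and 3.47 CPM in Sham replicates 1 to 4. Dmbt1, a mucosal scavenger protein, had 253, 7.45, 20.1 and 1.696 CPM in OVX replicates 1 to 4, against 1.29, 3.98, 1.65 and 1.03 CPM in Sham replicates 1 to 4. The values in Gp2 and Bpifb2 spread over a wide range within OVX, and OVX replicate 1 was far above the other libraries for Dmbt1. All were called by DESeq2, at adjusted p values of 0.0188, 0.0258 and 0.0452, and none by edgeR. The log2 fold change without OVX replicate 1 was 2.97 for Gp2, 3.42 for Bpifb2 and 2.31 for Dmbt1. Without OVX replicate 3, the highest library for Gp2 and Bpifb2, it was 1.61 and 1.43. That library had the lowest nasal gland share of the 8 libraries, at 0.288% of counts. Muc5b, a gel-forming mucin, averaged 142 ± 182 CPM in OVX and 21.8 ± 8.65 CPM in Sham without overlap. Over the 18 nasal gland genes tested, 11 were higher and 7 lower in OVX, and the summed shares of the groups overlapped. Myh4 encodes a fast myosin of skeletal muscle. It had 2.79, 1.35, 1.02 and 8.31 CPM in OVX, against 59.4, 56.8, 1.80 and 14.2 CPM in Sham. The other 10 muscle genes were higher in OVX with overlap, but this direction rested on OVX replicate 2. That library had the largest summed muscle share of the 8 libraries, at 0.534% of counts. The median of the 11 muscle genes was 0.25 with it and −0.26 without it. Of the other neighbouring tissues, 5 of 6 ciliated airway genes, 3 of 5 olfactory genes, 2 of 3 salivary genes and 6 of 8 oral keratinocyte genes were higher, none of them at an unadjusted p under 0.05. When OVX replicate 1 was left out, 1 of the 3 salivary genes and 3 of the 8 oral keratinocyte genes were higher, with medians of −0.43 and −0.23. All 7 brain neuron genes were lower, with a median of −1.52, which was 0.50 without Sham replicate 2, and 3 of 4 genes of peripheral ganglia were lower.

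A set of 20 genes that differed with estradiol in these same DAC libraries was looked at for the OVX against Sham difference. The set was chosen in a comparison that shares the OVX libraries, so its directions are not independent, and its values are given only side by side. Of the 20, 12 were higher and 8 lower in OVX than in Sham. The set includes Rag1, Pax5, Vpreb3, Pou2af1 and Spib, which are also members of the B cell lists above. The B lymphopoiesis genes summed to 0.0258% ± 0.00355 of counts in OVX and 0.0160% ± 0.00264 in Sham, and to 0.00755% ± 0.00142 in the OVXE2 libraries (SD, n = 4 each). Pi15, a secreted protease inhibitor, averaged 4.73 ± 2.02 CPM in OVX and 6.10 ± 0.780 CPM in Sham, with a 95% interval of −0.97 to 0.25. Trpc6, a calcium-permeable channel, averaged 6.01 ± 1.24 CPM in OVX and 8.02 ± 1.53 CPM in Sham, with a 95% interval of −0.83 to 0.00.

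The gingiva of the same design had 4 OVX and 4 Sham libraries, and the OVX effect in the DAC was tested against that in the gingiva. Of 14209 genes in that fit of 24 libraries, edgeR called 0 for the difference of effects, and the smallest adjusted p was 0.575. At an unadjusted p under 0.05 there were 1212 genes, 8.53% of those tested, with 700 (4.93%) having the more positive effect in the DAC and 512 (3.6%) the more negative one. The 6 with the smallest p were Fam131b, the predicted genes Gm13861 and Gm6088, Trpm1, Dpp4 and Trpc6, followed by Gp2 and Bpifb2. Gm13861 and Gm6088 differed by −2.80 ± 0.63 and 2.50 ± 0.58 log2 units (SE), at very low levels. Gm13861 averaged 0.183 CPM in DAC OVX, 0.381 in DAC Sham, 0.390 in gingival OVX and 0.114 in gingival Sham. Gm6088 averaged 0.544, 0.147, 0.424 and 0.674 CPM in the same order. Dpp4, a peptidase of cell surfaces, averaged 12.99 ± 3.63 CPM in DAC OVX and 7.94 ± 0.671 CPM in DAC Sham. In the gingiva Dpp4 averaged 20.01 ± 2.84 CPM in OVX and 28.2 ± 7.50 CPM in Sham (SD, n = 4 each). The 2 effects of Dpp4 differed by 1.20 ± 0.28 log2 units (SE), with an edgeR adjusted p of 0.575. On this fit's scaling over 24 libraries, the levels of Trpc6 were 5.79 ± 1.29 CPM in DAC OVX and 7.54 ± 1.47 CPM in DAC Sham, and 1.54 ± 0.188 CPM in gingival OVX and 0.928 ± 0.152 CPM in gingival Sham. Fam131b and Trpm1, a cation channel of pigment and retinal cells, differed by −1.09 ± 0.22 and 1.74 ± 0.37 log2 units. Trpm1 averaged only 0.308 CPM in DAC OVX and 0.128 CPM in DAC Sham, and was not among the genes tested in the DAC fit. The differences of Gp2 and Bpifb2 were 4.10 ± 0.99 and 4.42 ± 1.08 log2 units. For both gland genes, gingival levels averaged 455 ± 239 and 660 ± 343 CPM in OVX and 1147 ± 784 and 1688 ± 1026 CPM in Sham.

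The B lymphopoiesis genes gave a median log2 fold change of 0.77 over the 10 tested in the DAC and 1.75 over the 7 tested in the gingiva. For Pou2af1 the log2 fold change was 0.73 in the DAC and 2.89 in the gingiva, and the adjusted p of the difference was 0.575. The osteoclast genes had medians of −0.21 in the DAC and 0.06 over 9 tested in the gingiva. No gene of either list was called for a difference between the tissues.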

How the data were processed

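The authors deposited 1 count file per library with whole-number read counts per gene, not normalized. Per the submitters' processing notes, fastp, STAR and DESeq2 were used, with versions not given in the sources used here. Column 4 of each file was used, the column in which most reads were assigned, and rows that summarise unassigned reads stayed out of library sizes and tests. These rows held, among others, 7.21% to 13.5% of reads as multimapping and 19.8% to 25.9% as without a feature. Gene names and positions came from GENCODE M21 on GRCm38.

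Low-count genes were removed by filterByExpr, TMM scaling was applied, and the counts were fitted with edgeR 4.0.16 (quasi-likelihood, robust) in R 4.3.3 over the 12 DAC libraries, with OVX minus Sham as the contrast and Benjamini-Hochberg adjustment at 0.05 over all genes tested. The estimated biological coefficient of variation was 0.305, with 9 residual degrees of freedom before moderation. The difference from gingiva was a contrast in a fit of all 24 libraries. Intervals are at 95%. The fit was also run on simulated counts with the same spread for every gene and no outlying library. That setting differs from these data, so the simulation cannot show how the fit behaves on them. Alternatives used limma 3.58.1, DESeq2 1.42.0 and sva 3.50.0, other scalings, filters, covariates and left-out libraries, and 2 library selections were added after the data were seen.

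The 43 gene lists and the comparison itself were chosen with earlier results of these data known, so their counts are descriptions. Genes of the lists that are not in the files were not analysed here, and a few members that enter the counts and medians are not reported here by name. The genes named were those past the test, the 12 with the smallest unadjusted p in each direction among non-overlapping genes with a mean log2 CPM of at least 1, up to 4 members of each list and members that define it, a panel of followed genes, and the 6 with the smallest p for the difference from gingiva, beside which Gp2 and Bpifb2, the next by p, were named after their values were seen. Some list members with a smaller p than one named are summarised in the counts, and Dmbt1 was named because DESeq2 called it. No 2 libraries agreed within sampling noise: the chi-square per degree of freedom between libraries of a group lay between 23.7 and 359.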

Additional observations from a re-analysis of the deposited data

Results flagged for a closer look

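Within each group of 4 libraries, a value was marked when its gap to the nearest other value, divided by the range of the group, exceeded Dixon's 95% critical value for 4 samples. Of 290 such groups examined, 18 (6.21%) were marked. The rate of about 1 in 20 marked by chance holds for independent, normally distributed groups. The groups here share libraries and genes, so 6.21% cannot be judged against that rate. OVX replicate 1 was the marked library in 6 of them. It was highest for the nasal gland share (14.1% of counts), the brain neuron share (0.0128%) and the peripheral ganglia share (0.00382%). It was also highest for Dmbt1 (253 CPM), Rag1 (30.1 CPM) and Bach2 (39.5 CPM).

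OVX replicate 3 was highest for the gland genes Gp2 (63.6 CPM), Bpifb2 (86.4 CPM) and Muc5b (414 CPM). The same library was highest for the B cell genes Cd79a (59.2 CPM), Fcer2a (7.64 CPM) and Cr2 (6.62 CPM). OVX replicate 2 was lowest for Cd3e, at 1.35 CPM. OVX replicate 4 was highest for Fgf23 (2.29 CPM) and Il6 (8.55 CPM).

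In the Sham group, replicate 2 was highest for the brain neuron share (0.0424% of counts) and lowest for Bpifb2 (3.01 CPM). Sham replicate 3 was highest for Lif (24.6 CPM). Values with single libraries left out are given beside the results they touch.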

How the results depend on the processing

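Over the alternatives run, edgeR and limma-voom called 0 genes for OVX against Sham under each setting, while DESeq2 called 10. The count at an unadjusted p under 0.05, 437 as reported, was 1091 with limma-voom sample quality weights and 915 with 1 surrogate variable. It ranged from 310 to 657 when 1 library was left out, highest without OVXE2 replicate 3 and lowest without Sham replicate 4. Without OVX replicate 1, 129 of 426 such genes (30.3%) were higher in OVX, and without OVX replicate 1 and Sham replicate 2, an alternative chosen after seeing the data, 98 of 343 (28.6%). Within libraries of higher opposite-strand share, also chosen after seeing the data, there were 300 genes. The labels share replicate numbers between groups, but same-numbered libraries did not deviate together, with correlations from −0.368 to 0.161. With a replicate block, 0 genes were called and 445 had an unadjusted p under 0.05. For the difference from gingiva, 0 genes were called under every alternative, the replicate block included, and the count at an unadjusted p under 0.05 ranged from 700 to 1837 with 1 library left out. The median of the 10 B lymphopoiesis genes lay between 0.54 and 0.87 over 29 alternatives, with all 10 higher in each. For the 7 of these 10 without overlap, leaving out a library could not turn the direction. The osteoclast median lay between −0.27 and −0.09. The 10 genes called by DESeq2 kept their direction in all alternatives run, and why DESeq2 alone called them was not tested. For those of them without overlap, leaving out a library could not turn the direction. Depth was lowest in Sham replicate 2, at 14771830 counts.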
